A study of Mus musculus with 6 samples.

Results

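Prostaglandins are local lipid signals, and the 8 genes described here cover their synthesis (Pla2g4a, Ptgs1, Ptges and Ptgis), their breakdown (Hpgd) and their receptors (Ptgfr, Ptger2 and Ptger4). The genes were taken by symbol from tables that list 46078 genes for each library, and all 8 were found, with 1 row each. RNA of whole ovaries had been sequenced in 2 groups of 3 libraries, all from C57BL/6 mice 8 to 9 weeks of age. CTX libraries came from mice given cyclophosphamide, an alkylating anticancer drug that damages the ovary, and control libraries from mice labelled as controls. The sources used here do not give the drug's dose or route, the interval before collection, the stage of the estrous cycle or any pooling of animals. Since no label ties a library to an animal of its own, the spread behind each p-value is that between libraries and may be technical.

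Phospholipases such as the product of Pla2g4a free arachidonic acid from membranes, cyclooxygenases turn it into an unstable intermediate, and terminal synthases make the individual prostaglandins from that. In the ovary, prostaglandin E acts in ovulation and cumulus expansion, while prostaglandin F2 alpha is known for luteolysis, the end of progesterone production and the later loss of the corpus luteum. Mice without the receptor Ptgfr do not deliver at term, because their corpora lutea keep making progesterone. In the rat, prostaglandin F2 alpha also raises Akr1c18, whose enzyme turns progesterone into an inactive steroid. Levels below are RPKM, read numbers scaled by exon length and by library depth, which allows levels of different genes to be compared.

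Depth, read from the steps between low values, was 18100000, 22100000 and 17200000 reads in CTX 1, 2 and 3, and 15800000, 16000000 and 16800000 reads in controls 1, 2 and 3. The libraries did not divide by treatment, and CTX 1 stood with controls 1 and 2 while CTX 2 and 3 stood with control 3. The mean log2(RPKM + 1) of 14 luteal cell markers, led by Hsd3b1, was 7.59, 5.79 and 5.78 in CTX 1, 2 and 3, against 7.46, 7.67 and 6.15 in controls 1, 2 and 3. Not all followed this division. Stc1 was highest in control 3 (32.5 RPKM) and lowest in CTX 1 (6.44 RPKM). Abcb1b had 54.0 RPKM in control 3, against 10.6 and 10.8 RPKM in CTX 2 and 3. CTX lay wholly below control in both, 2 of the 13 luteal markers tested (5.50% of all genes tested). As a sum over 12 genes, granulosa cell markers, led by Inha, went the other way. The sum was 1014, 3359 and 3334 RPKM in CTX 1, 2 and 3, against 1719, 1561 and 3786 RPKM in controls 1, 2 and 3. Inhbb differed, with 20.3, 69.0 and 71.1 RPKM in CTX 1, 2 and 3, against 92.6, 80.3 and 255.1 RPKM in controls 1, 2 and 3. CTX lay wholly below control in Inhbb, 1 of the 12 (5.50% of all genes tested). Foxl2 was nearly level, at 78.9 to 94.0 RPKM in CTX and 90.3 to 91.1 RPKM in control. None of the luteal, granulosa or oocyte markers was at 0 in any library. In such bulk tissue, fewer cells of a type and less RNA per cell cannot be told apart.

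The members that differed most between libraries were Ptgfr and Hpgd, and the start regions of these genes are shown because their levels ran in opposite directions. The stretches lie before the transcription start in RefSeq (GRCm38.p6), run 5′ to 3′ on the gene's own strand and stop short of any exon in GENCODE M21. The Ptgfr stretch is chr3:151837631-151837778 on the minus strand (148 bases), and the Hpgd stretch is chr8:56294302-56294551 on the plus strand (250 bases). Capitals mark the nuclear receptor core motif AGGTCA, read on either strand, in Ptgfr and the GC box GGGCGG, read on either strand, in Hpgd.
Ptgfr: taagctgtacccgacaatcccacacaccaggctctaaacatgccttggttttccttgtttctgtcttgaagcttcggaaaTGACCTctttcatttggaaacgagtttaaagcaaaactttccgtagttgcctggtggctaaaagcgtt
Hpgd: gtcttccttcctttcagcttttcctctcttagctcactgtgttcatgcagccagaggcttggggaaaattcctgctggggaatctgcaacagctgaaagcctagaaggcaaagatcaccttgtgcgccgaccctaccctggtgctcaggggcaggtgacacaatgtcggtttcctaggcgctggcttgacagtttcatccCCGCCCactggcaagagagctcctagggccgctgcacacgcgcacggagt

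Windows of 300 bases around the RefSeq start (250 before and 50 after) were searched on both strands in 7 of the 8 genes, and Ptgis had no entry. In the Ptgfr window, AGGTCA matched at 2 places and GGGCGG at 2, and in the Hpgd window GGGCGG matched at 1 place and the TATA motif TATAAA at 1, just after the start. These motifs were not particular to the pair, since GGGCGG also matched at 4 places in the Ptger4 window and at 2 in that of Ptges, and AGGTCA and TATAAA each matched at 1 place in a Pla2g4a window. Over 32851 mouse windows, AGGTCA was found in 16.3%, GGGCGG in 35.7% and TATAAA in 13.6%. The steroidogenic factor motif TCAAGGTCA (0.423% of windows), which contains AGGTCA, the cAMP response element TGACGTCA (1.79%), the AP-1 motif TGANTCA (7.81%), the GATA motif AGATAA (11.2%) and the E-box CACGTG (7.15%) matched in none of the members' windows. The motif CCAAT (37.4% of windows) matched in those of Ptger2, Ptger4 and Pla2g4a. A match describes the letters only. AGGTCA was added to the search after the sequences had been read.

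No member passed the test between CTX and control. In limma, with Benjamini-Hochberg adjustment over all 14535 genes that reached 1 RPKM in at least 3 libraries, 0 genes passed at 0.05 (0% of those tested), and all 8 members, each of which reached that level, had an adjusted p of 1. Before adjustment, 501 genes (3.45% of those tested) had a p under 0.05, and no member was among them. CTX and control overlapped in all 8 members, where 8.83% of the genes tested did not overlap. The median log2 fold change of the 8 members was 0.07, with 5 positive and 3 negative, against −0.01 over all genes tested. That median was −0.05 without control 2, 0 with the luteal marker mean as a covariate, 0.17 without CTX 1 and 0.20 over the members with a mean of at least 5 RPKM. An exact two-sided permutation test of 3 against 3 libraries, which cannot give a p under 0.1, gave between 0.2 and 1 for the members.

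**Figure D1:**
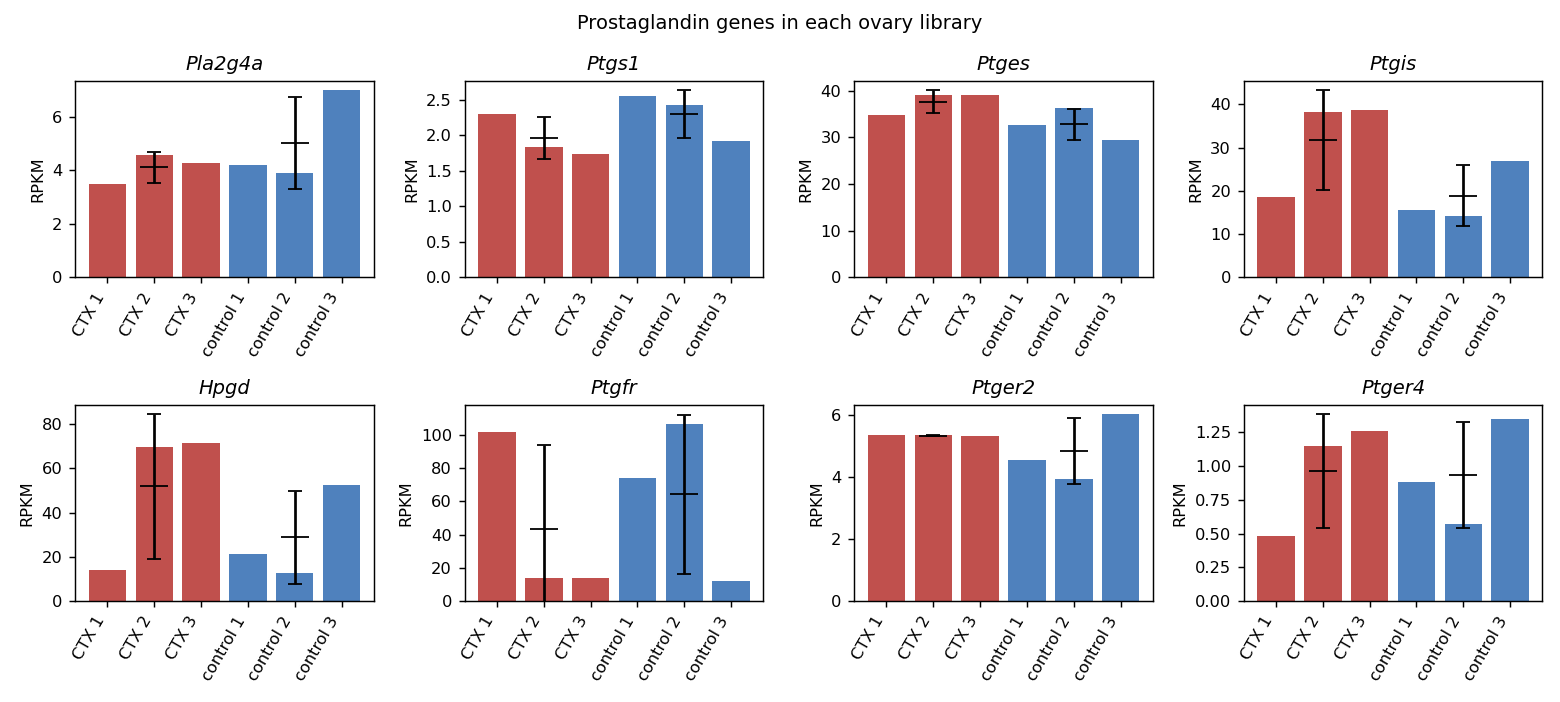
Level of each member in RPKM (vertical axes, each on its own scale from 0) in CTX 1 to 3 (red bars) and control 1 to 3 (blue bars), with the mean and SD of each group in black, the SD of Ptgfr in CTX being cut off at 0. Ptgfr was high in CTX 1 and controls 1 and 2, Hpgd was high in CTX 2, CTX 3 and control 3, Ptgis was highest in CTX 2 and 3 with control 3 next, and Ptges was similar in all 6.

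Pla2g4a encodes cytosolic phospholipase A2, which releases arachidonic acid. It had 3.47, 4.58 and 4.26 RPKM in CTX 1, 2 and 3, against 4.19, 3.88 and 6.98 RPKM in controls 1, 2 and 3. Control 3 stood above the other 5 libraries, which lay close together, and the groups overlapped. The fitted log2 fold change, CTX minus control, was −0.21 ± 0.22 (SE; limma unadjusted p = 0.378) with a 95% interval of −0.74 to 0.32. Without control 3 it was 0.01, so the negative sign came from that library.

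Ptgs1 encodes the constitutive cyclooxygenase, and its loss in mice delays labour. It had 2.30, 1.84 and 1.74 RPKM in CTX 1, 2 and 3, against 2.55, 2.43 and 1.92 RPKM in controls 1, 2 and 3. The lowest 3 values were those of CTX 2, CTX 3 and control 3, and the highest library had 1.47 times the lowest. These levels rest on about 116 to 162 reads per library in CTX and 125 to 156 in control. Its log2 fold change was −0.16 ± 0.15, with a 95% interval of −0.52 to 0.21.

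Macrophage and platelet markers were looked at beside Ptgs1, which such cells are known to express. The 10 macrophage markers summed to 519.6, 345.5 and 343.2 RPKM in CTX 1, 2 and 3, against 535.0, 410.6 and 365.2 RPKM in controls 1, 2 and 3, a sum carried by Lyz2, a lysozyme gene, and the complement genes C1qa, C1qb and C1qc. Other macrophage markers had other orders, and Adgre1 was highest in control 3 (7.29 RPKM) and lowest in control 2 (4.06 RPKM). Csf1r had 7.54, 9.29 and 8.73 RPKM in CTX 1, 2 and 3, against 12.55, 10.94 and 12.21 RPKM in controls 1, 2 and 3. CTX thus lay wholly below control in Csf1r, 1 of the 9 macrophage markers tested (5.50% of all genes tested). None of the 9 passed the test. None of the 10 was at 0 in any library. The 10 mast cell and platelet markers summed to 9.04 to 11.8 RPKM in CTX and 9.20 to 11.5 RPKM in control, most of it from the platelet factor gene Pf4. The mast cell protease genes Mcpt4, Tpsb2 and Tpsab1, the mast cell receptor gene Ms4a2 and the platelet genes Ppbp and Gp9 were at 0 in at least 1 library. The 10 surface epithelium and mesothelium markers, led by the keratin gene Krt8, summed to 52.6 to 73.4 RPKM in CTX and 71.3 to 93.0 RPKM in control. None was at 0. Krt8 alone had a positive log2 fold change (0.23), and 9 were negative, against 7442 of all 14535 genes tested. CTX lay wholly below control in 4 of the 10, Upk1b, Msln, Muc16 and Krt7, against 5.50% of all genes tested. The limma unadjusted p was under 0.05 in 4 of the 10, against 3.45% of all genes tested. None of the 10 passed the test. The 8 oviduct markers, led by Tppp3, summed to 14.1 to 19.9 RPKM in CTX and 11.3 to 13.4 RPKM in control. Singly, CTX and control overlapped in all 8, and only 3 reached the level for testing. Most of the CTX 1 sum came from Rsph1 (8.90 RPKM), while Tppp3 was lowest in that library (3.55 RPKM). Dynlrb2 and Pax8 were at 0 in at least 1 library. The part of these cells in the Ptgs1 level was not tested.

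The inducible cyclooxygenase gene Ptgs2, which the ovulatory surge switches on in granulosa cells, was near 0 everywhere. It had 0.04, 0.05 and 0.06 RPKM in CTX 1, 2 and 3, against 0.08, 0.01 and 0.13 RPKM in controls 1, 2 and 3. It did not reach 1 RPKM in any library and was not tested. In every library Ptgs1 was thus the more abundant of the cyclooxygenase genes by RPKM.

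Ptges encodes microsomal prostaglandin E synthase, and it was the steadiest member. It had 34.8, 39.1 and 39.0 RPKM in CTX 1, 2 and 3, against 32.6, 36.3 and 29.5 RPKM in controls 1, 2 and 3. Its highest library had 1.32 times its lowest, and control 2 lay above CTX 1, so that the groups overlapped. Only 18.2% of the genes tested had a smaller residual SD. The means were 37.6 ± 2.47 RPKM in CTX and 32.8 ± 3.37 RPKM in control (SD, n = 3 each). The log2 fold change was 0.20 ± 0.12 (95% interval −0.09 to 0.49, limma unadjusted p = 0.152), and it stayed between 0.12 and 0.27 with each library left out in turn.

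Ptgis encodes prostacyclin synthase, whose product relaxes vessels and is best known from endothelium and smooth muscle. It had 18.5, 38.2 and 38.6 RPKM in CTX 1, 2 and 3, against 15.6, 14.1 and 26.9 RPKM in controls 1, 2 and 3. CTX 2 and 3 stood above the other libraries, control 3 came next, and CTX 1 lay between controls 1 and 3. Among the members it had the smallest unadjusted p, with a log2 fold change of 0.71 ± 0.36 (95% interval −0.16 to 1.57, limma unadjusted p = 0.0928). Without CTX 1 the log2 fold change was 1.04 with an adjusted p of 0.220, and without control 3 it was 0.98 with an adjusted p of 0.817, while without control 1, control 2, CTX 2 or CTX 3 it was 0.60, 0.54, 0.54 and 0.53.

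Smooth muscle and pericyte markers had more than 1 order among the libraries. The 10 markers together summed to 729.5, 884.9 and 824.6 RPKM in CTX 1, 2 and 3, against 540.0, 533.9 and 764.4 RPKM in controls 1, 2 and 3, and most of that came from Acta2, the smooth muscle actin gene, and Tagln, which was highest in CTX 1. Apart from Tagln, Rgs5 and Notch3, each of the 10 had its 2 highest values in CTX 2 and CTX 3, as Ptgis did. The pericyte markers were lowest in those libraries. Rgs5 had 41.6, 19.7 and 21.2 RPKM in CTX 1, 2 and 3, against 44.9, 44.6 and 31.0 RPKM in controls 1, 2 and 3. Notch3 had 10.6, 5.94 and 5.61 RPKM in CTX 1, 2 and 3, against 11.7, 12.7 and 7.08 RPKM in controls 1, 2 and 3. As a sum, the 12 endothelial markers, led by Cldn5, did not follow Ptgis. They had 191.3, 143.4 and 136.6 RPKM in CTX 1, 2 and 3, against 178.2, 192.5 and 171.0 RPKM in controls 1, 2 and 3. Vwf was an exception at a low level, with 0.55, 1.79 and 1.70 RPKM in CTX 1, 2 and 3, against 1.39, 1.04 and 1.75 RPKM in controls 1, 2 and 3. CTX lay wholly below control in Tie1, Tek and Erg, 3 of the 12 (5.50% of all genes tested), and none passed the test. None of these markers was at 0 in any library. Outside the luteal function genes, single markers given beyond the most abundant of a cell type list were picked with their values already known. The part of either cell type in the Ptgis level was not tested.

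Hpgd encodes the dehydrogenase that inactivates prostaglandins E and F2 alpha. It had 14.1, 69.8 and 71.6 RPKM in CTX 1, 2 and 3, against 21.5, 12.7 and 52.7 RPKM in controls 1, 2 and 3. CTX 2, CTX 3 and control 3 were high and the other 3 libraries low, with CTX 1 below control 1. The highest library had 5.66 times the lowest, and 98.9% of the genes tested had a smaller residual SD. The means were 51.8 ± 32.7 RPKM in CTX and 28.9 ± 21.0 RPKM in control (SD, n = 3 each). The log2 fold change was 0.75 ± 0.75 with a 95% interval of −1.07 to 2.57.

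Without CTX 1 the log2 fold change of Hpgd was 1.50 with an adjusted p of 0.284, and without control 3 it was 1.29 with an adjusted p of 0.838. Without control 2, CTX 2 or CTX 3 it was smaller than with all libraries, at 0.30, 0.38 and 0.36, and without control 1 it was 0.66. The libraries with high Hpgd were those with high levels of follicle genes. The 12 oocyte markers summed to 122.3, 446.4 and 441.5 RPKM in CTX 1, 2 and 3, against 194.3, 166.1 and 395.2 RPKM in controls 1, 2 and 3, with Padi6, an oocyte cytoplasmic lattice gene, the most abundant. The 8 theca markers summed to 148.7, 446.9 and 424.4 RPKM in CTX 1, 2 and 3, against 136.9, 115.0 and 261.3 RPKM in controls 1, 2 and 3. Cyp17a1, the androgen synthesis gene, led them. Insl3 did not have the order of Hpgd, with 16.9, 18.0 and 17.8 RPKM in CTX 1, 2 and 3, against 9.27, 7.38 and 13.2 RPKM in controls 1, 2 and 3. CTX lay wholly above control in Insl3, 1 of the 8 (3.32% of all genes tested), and none of the 8 passed the test. No oocyte or theca marker was at 0.

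Markers of fat tissue moved with Hpgd too. The 8 adipocyte markers summed to 18.9, 199.8 and 189.6 RPKM in CTX 1, 2 and 3, against 20.5, 15.5 and 148.3 RPKM in controls 1, 2 and 3, led by Cfd, the adipsin gene. Adipoq, Lep, Retn and Cidec, genes of mature fat cells, were at 0 in at least 1 library. The part of follicle cells or fat in the Hpgd level was not tested.

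Ptgfr encodes the prostaglandin F receptor and was the most abundant receptor gene among the members and the most variable member. It had 102, 14.1 and 13.9 RPKM in CTX 1, 2 and 3, against 73.9, 107 and 12.3 RPKM in controls 1, 2 and 3. CTX 1, control 2 and control 1 were high, and the other 3 libraries lay together far below them. The highest library had 8.65 times the lowest, and 99.7% of the genes tested had a smaller residual SD. The means were 43.3 ± 50.9 RPKM in CTX and 64.3 ± 47.9 RPKM in control (SD, n = 3 each).

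The log2 fold change of Ptgfr was −0.74 ± 1.05 with a 95% interval of −3.26 to 1.78, so a fall or a rise of several fold in CTX would both lie within it. Without CTX 1 it was −1.67 with an adjusted p of 0.374, and without control 3 it was −1.66 with an adjusted p of 0.829. Without control 1, control 2, CTX 2 or CTX 3 it was nearer to 0, at −0.41, −0.15, −0.28 and −0.27. With the luteal marker mean of each library as a covariate in the limma model, which leaves 3 residual degrees of freedom, the sign turned, to 0.46 with an adjusted p of 0.212. That mean includes Abcb1b and Stc1, in which CTX lay wholly below control, so the covariate is not free of the group difference. In the same fit the log2 fold change of Hpgd was −0.11 with an adjusted p of 0.655, and that of Ptgis was 0.31 with an adjusted p of 0.150.

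**Figure D2:**
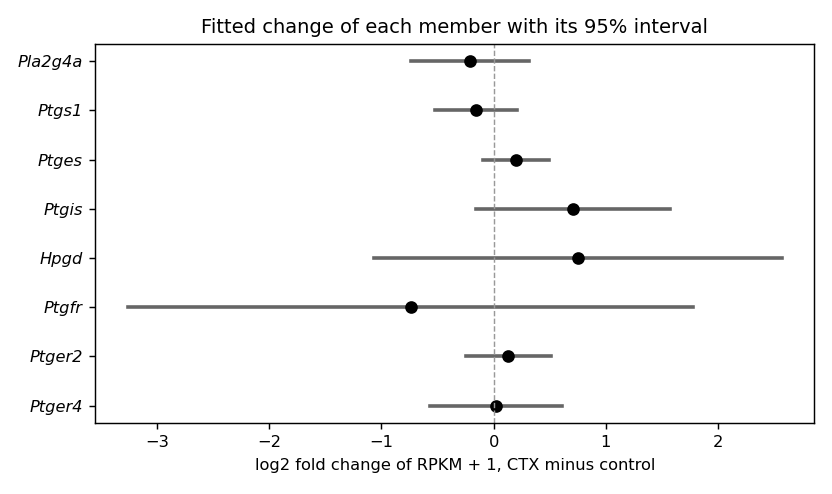
Fitted log2 fold change of each member (points) with its 95% interval (lines), CTX minus control, on log2(RPKM + 1) over 3 CTX and 3 control libraries. All 8 intervals include 0, and those of Ptgfr (−3.26 to 1.78) and Hpgd (−1.07 to 2.57) are the widest.

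Ptger2 and Ptger4 encode the prostaglandin E receptors that raise cAMP, and in mice Ptger2 is needed for normal cumulus expansion. Ptger2 had 5.34, 5.34 and 5.31 RPKM in CTX 1, 2 and 3, against 4.55, 3.95 and 6.03 RPKM in controls 1, 2 and 3. The CTX values were nearly equal and lay inside the range of the controls. Its log2 fold change was 0.13 ± 0.16, with a 95% interval of −0.25 to 0.51, and it was 0.02 without control 2 and 0.27 without control 3. Ptger2 shares 246 of its 5193 exonic bases with genes on the opposite strand, and no source says whether reads were counted by strand.

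Ptger4 was the least abundant member, and 0.9% of the genes tested had a lower mean level. It had 0.48, 1.15 and 1.26 RPKM in CTX 1, 2 and 3, against 0.88, 0.57 and 1.35 RPKM in controls 1, 2 and 3. As with Hpgd, CTX 2, CTX 3 and control 3 were the highest libraries, and the groups overlapped throughout. Ptger4 reached 1 RPKM in those libraries alone, so it passed the filter only through them. These levels correspond to about 58 to 169 reads per library in CTX and 61 to 151 in control, and 1097 of its 6648 exonic bases are shared with Ttc33 and Gm15937 on the opposite strand. The log2 fold change was 0.02 ± 0.24, with a 95% interval of −0.57 to 0.61, and it turned to −0.12 without control 2 and to −0.21 with the luteal marker mean as a covariate.

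The pattern of Ptgfr was set beside genes of luteal function, those for hormone receptors, cholesterol uptake and progesterone synthesis whose expression or activity falls in functional luteolysis. Apart from Fdxr, all are also among the 14 luteal cell markers, so they do not give a comparison separate from that with the luteal marker mean. The log2 fold change was negative in all 9 (median −0.36), against 7442 of all 14535 genes tested. None of the 9 passed the test, and none separated CTX from control, where 8.83% of all genes tested did. Each was highest in CTX 1 and controls 1 and 2, so the 9 signs follow the same division of libraries and are not separate results. The prolactin receptor gene Prlr had 48.8, 15.9 and 17.0 RPKM in CTX 1, 2 and 3, against 51.3, 63.0 and 19.2 RPKM in controls 1, 2 and 3. Lhcgr, the luteinizing hormone receptor gene, had 308.1, 111.4 and 108.0 RPKM in CTX 1, 2 and 3, against 265.3, 501.0 and 43.7 RPKM in controls 1, 2 and 3. Both were high in the 3 libraries in which Ptgfr was high.

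Cyp11a1, which starts steroid synthesis, had 2801, 800.9 and 810.0 RPKM in CTX 1, 2 and 3, against 1947, 2148 and 782.1 RPKM in controls 1, 2 and 3. Star, which carries cholesterol into mitochondria, differed in control 3, with 572.3, 65.8 and 65.0 RPKM in CTX 1, 2 and 3, against 543.0, 532.0 and 292.8 RPKM in controls 1, 2 and 3. Hsd17b7, known in rodents as a luteal prolactin receptor-associated protein, had 175.7, 9.58 and 10.3 RPKM in CTX 1, 2 and 3, against 174.4, 270.4 and 11.5 RPKM in controls 1, 2 and 3. The other 4 genes, Hsd3b1 and the electron donors Fdx1 and Fdxr of steroid synthesis, and Scarb1 for lipoprotein uptake, were also highest in CTX 1, control 1 and control 2. They spanned 60.8 to 5397 RPKM in CTX and 32.6 to 4489 RPKM in control.

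**Figure D3:**
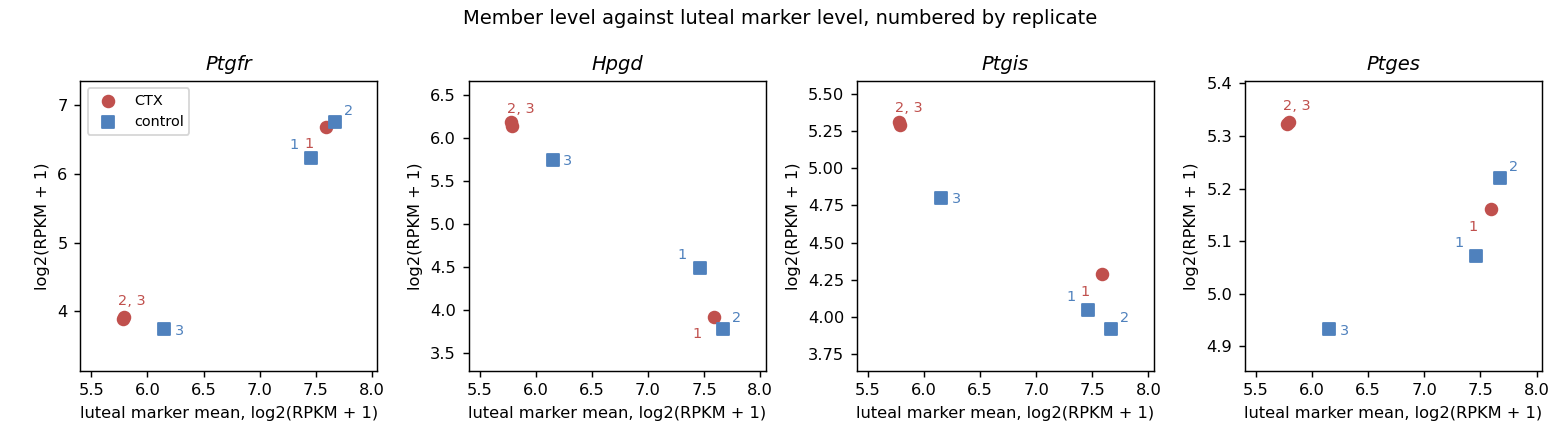
Level of Ptgfr, Hpgd, Ptgis and Ptges as log2(RPKM + 1) (vertical axes) against the mean log2(RPKM + 1) of 14 luteal markers (horizontal axes) in 3 CTX libraries (circles) and 3 control libraries (squares), each numbered by its replicate. Libraries with luteal means of 7.46 to 7.67 had the highest Ptgfr and the lowest Hpgd and Ptgis, and the points form 2 separate sets, so that no correlation is given.

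Ptgfr also differed relative to luteal genes of the same library. Its ratio to Cyp11a1, both in RPKM, was 0.0364, 0.0176 and 0.0171 in CTX 1, 2 and 3, against 0.0379, 0.0497 and 0.0158 in controls 1, 2 and 3. Its ratio to Prlr was 2.09, 0.886 and 0.815 in CTX 1, 2 and 3, against 1.44, 1.69 and 0.644 in controls 1, 2 and 3. On both scales CTX 2, CTX 3 and control 3 were the lowest libraries, so Ptgfr differed between libraries by more than either of these genes. The ratio to Lhcgr was 0.331, 0.126 and 0.128 in CTX 1, 2 and 3, against 0.278, 0.213 and 0.282 in controls 1, 2 and 3, and there control 3 stood with the high libraries. The ratio of Ptgfr to Hpgd spanned 0.194 to 7.22 in CTX and 0.234 to 8.44 in control. The ratios were chosen with these levels known.

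Genes that prostaglandin F2 alpha raises in corpora lutea, or that respond early to many signals, did not share 1 pattern. Of 13 such genes 12 were tested, and none passed. The log2 fold change was negative in 11 of the 12 (median −0.21), against 7442 of all 14535 genes tested. Akr1c18 had 150.1, 38.5 and 41.0 RPKM in CTX 1, 2 and 3, against 119.9, 90.2 and 29.3 RPKM in controls 1, 2 and 3, and so was high where Ptgfr was high. Its ratio to Cyp11a1 stayed within 0.0480 to 0.0536 in CTX and 0.0374 to 0.0616 in control, while its ratio to Hsd3b1 spanned 0.0190 to 0.0278 in CTX and 0.0102 to 0.0275 in control, the lowest being control 3. The 3 libraries with low Ptgfr had the 3 lowest Akr1c18 levels, and relative to Cyp11a1 they lay within the range of the others or below it.

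Nr4a1, an early response gene that mediates the rise of Akr1c18 in the rat, had 68.9, 23.9 and 22.1 RPKM in CTX 1, 2 and 3, against 26.1, 50.4 and 113.3 RPKM in controls 1, 2 and 3. It was highest in control 3, a library with low Ptgfr. Fos had 4.52, 13.0 and 11.5 RPKM in CTX 1, 2 and 3, against 4.03, 2.36 and 10.2 RPKM in controls 1, 2 and 3, and was high where Hpgd was high. Egr1 was highest in control 3, with 39.2 RPKM, and had 20.3 to 26.8 RPKM in CTX and 18.7 to 20.0 RPKM in controls 1 and 2.

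Among the other transcription factor genes, Jun had 21.9 to 26.4 RPKM in CTX and 26.1 to 40.1 RPKM in control, Junb 10.5 to 35.3 RPKM in CTX and 17.0 to 27.5 RPKM in control, and Jund 38.8 to 78.2 RPKM in CTX and 52.5 to 57.7 RPKM in control. Jund shares 877 of its 1668 exonic bases with Gm11175 on the opposite strand. Btg2, an antiproliferative gene, had 13.0 to 16.1 RPKM in CTX and 10.9 to 19.8 RPKM in control, and the cytokine signalling inhibitor gene Socs3 had 10.2 to 19.6 RPKM in CTX and 8.01 to 30.9 RPKM in control. CTX and control overlapped in all 5.

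**Figure D4:**
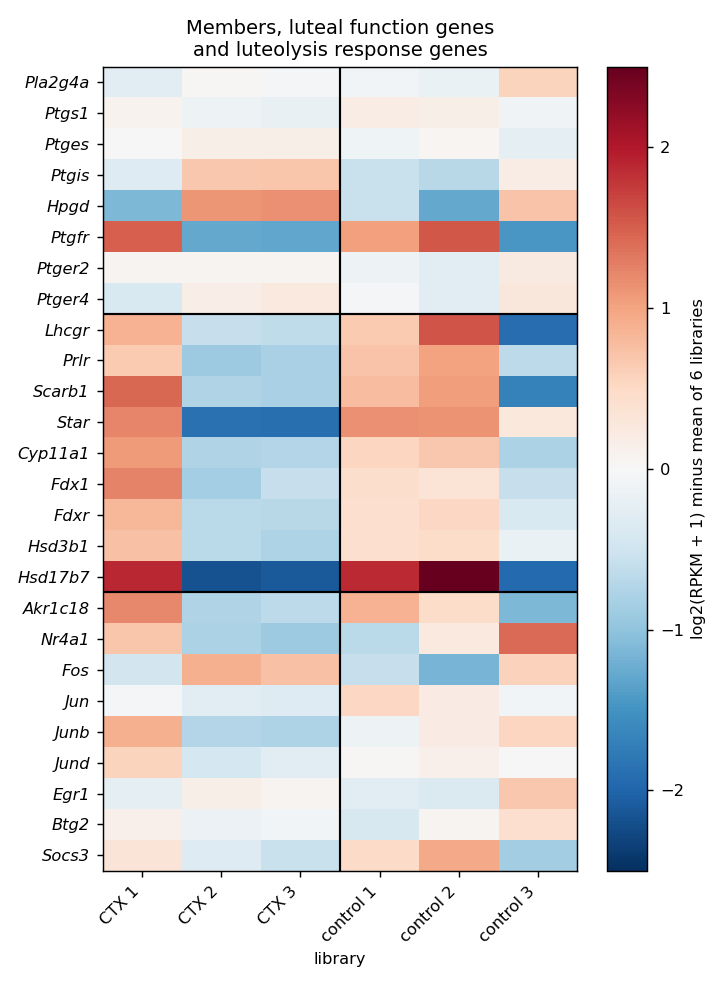
Level of the 8 members (top block), 9 luteal function genes (middle block) and 9 luteolysis response genes with a mean of at least 5 RPKM (bottom block) in CTX 1 to 3 (left) and control 1 to 3 (right), as log2(RPKM + 1) minus the gene's mean over 6 libraries. Ptgfr and the luteal function genes are highest in CTX 1 and controls 1 and 2, where Hpgd is lowest. Star differs from Ptgfr in control 3, where it had 292.8 RPKM, against 65.8 and 65.0 RPKM in CTX 2 and 3.

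Of the 38 other genes of prostaglandin synthesis, breakdown, transport and reception that were listed, 24 were tested, and 0 were higher and 0 lower in CTX by limma, as over all genes (0%). Their median log2 fold change was 0.01, with 13 positive and 11 negative, and 1 had an unadjusted p under 0.05. CTX lay wholly above control in 2 of the 24 (3.32% of all genes tested) and wholly below it in 3 (5.50%). The higher ones were Ptgr1, a prostaglandin reductase gene, and Akr1b8, an aldo-keto reductase gene. The 3 lower ones were Hpgds, a prostaglandin D synthase gene, and the phospholipase genes Pla2g7 and Pla2g15. Ptgr1, Hpgds and Pla2g7 are named after their values had been seen.

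Ptgr1 had the unadjusted p under 0.05, with 12.3, 13.9 and 13.3 RPKM in CTX 1, 2 and 3, against 11.0, 8.92 and 11.2 RPKM in controls 1, 2 and 3. Its log2 fold change was 0.32 ± 0.13 (limma unadjusted p = 0.0406, adjusted p = 1). Akr1b8 had 34.1, 37.9 and 34.2 RPKM in CTX 1, 2 and 3, against 31.1, 29.8 and 31.5 RPKM in controls 1, 2 and 3. The differences in both genes were small beside those between libraries in Ptgfr or Hpgd.

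The most abundant of these other genes was Zadh2, which encodes a prostaglandin reductase, with 69.8 ± 18.7 RPKM in CTX and 64.2 ± 6.90 RPKM in control (SD, n = 3 each). Ptges3, which encodes a cochaperone that can act as a prostaglandin E synthase, had 58.9 ± 9.87 RPKM in CTX and 55.3 ± 1.93 RPKM in control. Cbr1, a carbonyl reductase gene, had 37.5 ± 2.21 RPKM in CTX and 36.5 ± 6.22 RPKM in control, and the lysosomal phospholipase gene Pla2g15 had 16.0 ± 0.536 RPKM in CTX and 18.2 ± 1.97 RPKM in control. All 4 were steadier than Ptgfr.

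Fam213b encodes a prostamide and prostaglandin F synthase and was the exception. It had 102.8, 12.9 and 9.50 RPKM in CTX 1, 2 and 3, against 39.9, 46.3 and 14.4 RPKM in controls 1, 2 and 3. As with Ptgfr, CTX 1 and controls 1 and 2 were high, and the groups overlapped. Slco2a1, the prostaglandin uptake transporter gene, had 4.38 to 5.34 RPKM in CTX and 3.96 to 7.23 RPKM in control, and Ptgfrn, which encodes a membrane protein that binds the prostaglandin F receptor, had 9.56 to 10.3 RPKM in CTX and 10.3 to 11.8 RPKM in control. Neither showed the division of libraries seen in Ptgfr.

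Genes most like each member were sought among 8727 protein-coding genes with a mean of at least 5 RPKM, by Pearson's r of log2(RPKM + 1) over the 6 libraries. Because the libraries form 2 sets, high values are common: 752 genes had an r of at least 0.9 with Ptgfr and 1241 an r of at most −0.9. The 5 most like Ptgfr were St3gal1 (r = 0.9996), Stxbp6 (r = 0.9994), Epdr1 (r = 0.9993), Pmpca (r = 0.9985) and Apol6 (r = 0.9982). Epdr1 had 182.7, 34.5 and 36.2 RPKM in CTX 1, 2 and 3, against 134.7, 175.9 and 33.1 RPKM in controls 1, 2 and 3. The order of its libraries differed from that of Ptgfr only among libraries whose levels were close.

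The genes most like Hpgd were Prkab2 (r = 0.9989) and Slc25a12 (r = 0.9984), and those most like Ptgis were Pes1 (r = 0.9968) and Prss23 (r = 0.9964). For Ptger4 they were Snx18 (r = 0.9975) and Stx6 (r = 0.9968), and for Ptgs1 they were Iars2 (r = 0.9939) and Cpt1a (r = 0.9939). For Ptger2 they were Aimp1 (r = 0.9931) and Mrps31 (r = 0.9898), for Ptges Zfp35 (r = 0.9921) and Ankrd13a (r = 0.9822), and for Pla2g4a Adh1 (r = 0.9885) and Atg4c (r = 0.9873). Likeness at 0.9 or more was rarest for Ptges, with 19 genes, and most common for Hpgd, with 1218. These values describe 6 libraries and carry no test.

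By position in mm10, Ptgs1 (36230426 to 36252272), Ptges (30889471 to 30929863) and Ptgis (167191805 to 167240604) lie on chromosome 2, and Pla2g4a lies on chromosome 1 (149829618 to 149961290). Ptgfr lies on chromosome 3 (151796502 to 151837630), Hpgd on chromosome 8 (56294585 to 56321043), Ptger2 on chromosome 14 (44988195 to 45003820) and Ptger4 on chromosome 15 (5206661 to 5244187). All 8 are annotated as protein coding. Hpgd, Ptges and Pla2g4a share no exonic base with another gene, while Ptgfr shares 329 of 6778, Ptgs1 148 of 3884 and Ptgis 156 of 2567 exonic bases with genes on the opposite strand.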

How the data were processed

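The authors deposited 1 value per gene and library, taken as RPKM rounded to 2 decimals. The unit was inferred, since neither header nor label gives it: RPKM times exon length came out as whole reads (tolerance 0.2 reads) for 97.7 to 98.1% of values worth up to 15 reads in genes of up to 1000 exonic bases, with a single step per library that also gives the depth. Bowtie 0.12.2 and mm10 are named in the submitters' processing notes, while the sources used here do not give the read counter, annotation or strand use. Exon lengths and positions came from GENCODE M21 (GRCm38, the assembly of mm10). Approximate reads are RPKM multiplied by exon length and depth, so no counting interval is given.

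CTX was compared with control on log2(RPKM + 1), which understates changes of low genes, with limma 3.58.1 (R 4.3.3; linear model, moderated variances with a mean-variance trend) over 14535 genes with at least 1 RPKM in at least 3 libraries, adjusted by Benjamini-Hochberg. Tests are two-sided. The script was tested on simulated data with independent noise and without the division of libraries seen here, so that test does not give its power or error rate in these data. The closest libraries of a group (controls 1 and 2, and CTX 2 and 3) differed by a mean chi-square per gene of 6.95 and 8.04, where noise gives a mean of about 1. The medians were 1.44 and 1.31. All 6 libraries were kept, though this check cannot tell libraries of separate animals from repeated preparations of the same RNA. Genes named were all members, the 6 most abundant other pathway genes with Ptgs2, Ptgfrn and Slco2a1, the luteal function genes, the luteolysis response genes with a mean of at least 5 RPKM, the most abundant gene of each cell type list, and the genes most like each member. Some listed results are not reported here. Members and lists were chosen with earlier results of these data known.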

Additional observations from a re-analysis of the deposited data

How the results depend on the processing

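No member and no other pathway gene passed under any alternative: pseudocounts of 0.1 and 0.5, no filter on low values, a mean of at least 5 RPKM, quantile normalization, trimmed-mean scaling, limma without trend, the replicate number as a block, the luteal marker mean as a covariate, and each library left out in turn. Over all genes, limma called 0, but 9 with the luteal marker mean as a covariate and 13 without CTX 1, so that leaving out libraries gave 0 to 13. The cause was not tested. Signs turned for Ptgfr (0.46), Hpgd (−0.11) and Ptger4 (−0.21) with the luteal marker mean as a covariate, for Ptger4 without control 2 and for Pla2g4a without control 3. With each library left out in turn, the log2 fold change of Ptgfr lay between −1.67 and −0.15, that of Hpgd between 0.30 and 1.50, that of Ptger4 between −0.12 and 0.21, that of Pla2g4a between −0.34 and 0.01, that of Ptgis between 0.53 and 1.04, that of Ptger2 between 0.02 and 0.27, that of Ptgs1 between −0.24 and −0.10, and the median of the members between −0.05 and 0.17. With the replicate block the count of calls stayed 0. Whether libraries of the same number belong together cannot be told. Deviations from the group means correlated at 0.40, −0.54 and 0.60 for numbers 1, 2 and 3. They also correlated at 0.61 for control 2 with CTX 1 and at 0.60 for control 3 with CTX 2. These values follow the 2 sets of libraries, so they can neither show nor exclude a pairing. Ptger4 had no value with a mean of at least 5 RPKM or without CTX 2, CTX 3 or control 3, and Ptgs1 and Pla2g4a had none with that mean filter. Depth limits Ptgs1 and Ptger4 most, which rest on the fewest reads.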

Other observations

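Further phospholipase and synthase genes of the pathway differed between libraries more than between groups, and they were chosen after their values had been seen. Ptgds, which encodes a prostaglandin D synthase, had 10.3, 2.42 and 2.17 RPKM in CTX 1, 2 and 3, against 7.92, 5.77 and 1.84 RPKM in controls 1, 2 and 3, and so was high where Ptgfr was high. The secreted phospholipase gene Pla2g5 had 23.7, 11.9 and 11.1 RPKM in CTX 1, 2 and 3, against 13.9, 17.9 and 5.70 RPKM in controls 1, 2 and 3. Pla2g4c, a cytosolic phospholipase gene, went the other way with 2.35, 12.1 and 11.4 RPKM in CTX 1, 2 and 3, against 5.77, 5.01 and 9.79 RPKM in controls 1, 2 and 3. None of the 3 passed the test between CTX and control.

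Hpgd was set against Inha, the inhibin gene of granulosa cells, in each library. The ratio of their RPKM was 0.0323, 0.0416 and 0.0447 in CTX 1, 2 and 3, against 0.0297, 0.0216 and 0.0266 in controls 1, 2 and 3. The CTX ratios were all above the control ratios, which was so for this ratio alone among the 9 that were computed, and the ratio was chosen with both levels known, so it carries no test.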
